A study of Homo sapiens with 6 samples.

Results

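Genes for the proteins that build ribosomes and small nucleolar ribonucleoproteins (snoRNPs) were examined in MDA-MB-231 cells grown on fructose or on glucose. The members were 40 gene symbols, each looked up in the annotation of the array, and where a symbol had several probe sets the brightest on average (mean log2) was kept. Of the 40, 37 had a probe set of their own, among 18404 genes treated in the same way. NOP56 and SNU13 were listed only on probe sets shared with another gene and are described separately, and GNL3 was not analysed here. MDA-MB-231 is a widely used human cell line of triple-negative breast cancer. The fructose group was kept in DMEM with 10 mM fructose and the glucose group in DMEM with 25 mM glucose, both for 25 days. Each group had 3 arrays, each from a separately adapted batch of the same line, harvested near 70% confluency and roughly 24 hours after new medium. Sugar and concentration differed together and cannot be told apart, and the title of the series names the question as the effect of restricted glycolysis.

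Ribosomes are assembled in the nucleolus. RNA polymerase I transcribes a long precursor of ribosomal RNA, box C/D snoRNPs guide its ribose methylation and box H/ACA snoRNPs its pseudouridylation, and a large set of processing factors cuts and folds it into the small and the large subunit. The pathway consumes much of the energy of a growing cell, and many of its genes are known targets of the transcription factor MYC.

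None of the 37 members passed the test (limma, Benjamini-Hochberg over 28230 probe sets, threshold 0.05), where 0.00354% of all tested probe sets, the single gene TXNIP, did. The smallest adjusted p among the members was 0.32, for NOP58. Most members were slightly dimmer on fructose: 29 of 37 had a log2 difference (fructose minus glucose) below 0, against 43.8% of all tested probe sets. The median difference of the 37 was -0.05, against 0.02 over all tested probe sets. At an unadjusted p under 0.05, 4 members were lower and 0 higher, where 5.43% of all probe sets were lower and 7.65% higher. In the brightest 20% of probe sets, where 29 of the 37 members lie, those shares were 9.79% and 9.71%, so the members' 10.8% lower was near that background. The 4 were NOP58, NOLC1, WDR43 and UTP15. That count was 0 without fructose replicate 1 or without glucose replicate 1, and 1 without fructose replicate 3, glucose replicate 2 or glucose replicate 3. It was 7 when bright probe sets alone were fitted, and 10 lower with 1 higher both with an intensity trend and robust variances and with the unmoderated test. In either direction, 4223 of all 28230 probe sets had such a p with the trend and robust variances, and 3565 with the unmoderated test. Shares by direction or within the brightest 20% are not given here for these settings, so the 10 cannot be set against a like background. The bright probe sets of that setting were those whose mean in either group exceeded the median brightness of all tested probe sets. In either direction, 3177 of them had an unadjusted p under 0.05, and their total number is not given here. Of the 14115 probe sets above the median brightness over all arrays, 7.72% were lower and 9.71% higher in the main fit. The main fit gave 1534 lower and 2160 higher over all probe sets.

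The arrays of the sugars were fully separated for some members and overlapped for 20 of 37. For 16 of 37 members (43.2%) every fructose array lay below every glucose array, against 8.81% of all tested probe sets, and for 1 member every fructose array lay above, against 11.4%. Bright probe sets were measured with less spread. In the brightest 20%, 20.5% of probe sets were fully separated downward and 17.2% upward, 52.4% had a difference below 0, and the median difference was -0.01. The differences were small throughout, and 22 of 37 lay within 0.1 of 0 on the log2 scale. With a median standard error of 0.07, the 95% intervals of all members lay between -0.63 and 0.30, and between -0.40 and 0.30 without RRS1.

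**Figure D1:**
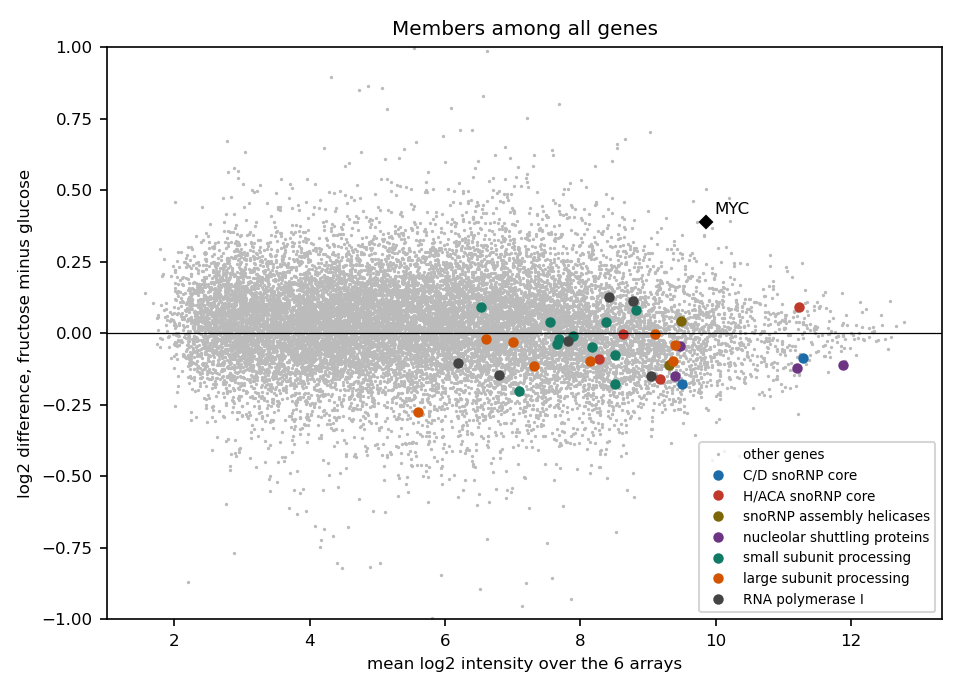
Mean log2 intensity over the 6 arrays (x) against the log2 difference, fructose minus glucose (y), with 1 point per gene; coloured points are the 37 members by role, grey points the other genes, and the diamond is MYC, with 7 genes beyond 1 on the y axis not drawn. The members lie between -0.27 and 0.13 and mostly below 0, and MYC lies above all of them.

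Facts of the whole series bear on these values as follows. Median intensities of the 6 arrays lay between 31.5 and 33.5. The 4091 rows set aside as control probe sets also leaned downward on fructose. Of these, 2496 (61.0%) were below 0 and 1595 above, and the middle of their differences was -0.055. Relative to the glucose mean, their medians were -0.060, -0.063 and -0.038 on fructose replicates 1 to 3. On glucose replicates 1 to 3 they were -0.005, 0.019 and -0.018. Their median standard error was 0.20, against 0.07 for the members, and their bearing on the members' values was not tested. All 5 measured markers of mesenchymal-like breast lines, VIM and CD44 among them, were in the brightest 20% of probe sets, while 4 of 7 luminal markers (ESR1, PGR, FOXA1 and CDH1) were below the median brightness and KRT19 was bright. All 4 leukocyte and all 5 fibroblast markers measured were below the median brightness, with PTPRC at 5.29 on fructose and 5.09 on glucose and DCN at 4.66 and 4.52. Among 3 markers of cycling cells, PCNA was lower on fructose by a log2 difference of -0.31 (95% interval -0.47 to -0.15, adjusted p = 0.17) and TOP2A by -0.17 (adjusted p = 0.35), while MKI67 was at -0.02. PCNA and TOP2A therefore had the sign of most members, and their part in the members' values was not tested. In RNA from a whole culture, fewer cells with a transcript and less RNA per cell cannot be told apart, and the normalization between arrays hides any change shared by all genes.

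Both measured genes of the box C/D core had values below 0. NOP58, a scaffold protein of box C/D snoRNPs, had RMA intensities of 655, 697 and 693 on the fructose arrays, against 769, 769 and 776 on the glucose arrays. All fructose arrays were below all glucose arrays, and the glucose arrays hardly differed among themselves. Its log2 difference was -0.18 (SE 0.06, 95% interval -0.33 to -0.03, adjusted p = 0.32), which is 1.13-fold lower on fructose. FBL encodes fibrillarin, the methyltransferase of these particles. It had intensities of 2363, 2452 and 2471 on fructose and 2563, 2577 and 2591 on glucose, again without overlap, and a difference of -0.09 (SE 0.06, adjusted p = 0.61).

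For the other C/D core proteins the array gives only shared probe sets. The one listed for both SNORD56 and NOP56 had 231, 238 and 219 on fructose, against 242, 244 and 250 on glucose, with a difference of -0.10 (adjusted p = 0.59). The one listed for both SNU13 and ANXA2, the gene of an abundant annexin, had 791, 800 and 777 on fructose and 750, 712 and 785 on glucose, a difference of 0.08 (adjusted p = 0.68) with overlap between the groups. Neither can be assigned to a single gene.

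Members of the H/ACA core did not share a direction. DKC1, which encodes the pseudouridine synthase dyskerin, had 533, 571 and 544 on the fructose arrays, against 640, 572 and 630 on the glucose arrays. The groups did not overlap, but fructose replicate 2 and glucose replicate 2 were almost equal, and the difference was -0.16 (SE 0.07, adjusted p = 0.42). GAR1, a small core protein of the particle, had 310, 286 and 309 on fructose and 311, 320 and 331 on glucose, with a difference of -0.09 (adjusted p = 0.63). NOP10, the smallest core protein, had 2521, 2638 and 2330 on fructose, against 2346, 2235 and 2446 on glucose. Its groups overlapped and its difference was 0.09 (95% interval -0.09 to 0.27, adjusted p = 0.67). NHP2 lay at 420, 421 and 354 on fructose and at 396, 385 and 415 on glucose, so that fructose replicate 3 alone was below all glucose arrays. A further NHP2 probe set also had no separation, and both had differences within 0.01 of 0. The median of the 4 genes was -0.05, but -0.02 without fructose replicate 3, -0.02 without glucose replicate 3 and -0.08 without fructose replicate 1.

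DKC1 hosts small RNAs in its introns, and 2 further probe sets are listed for DKC1 together with them. The one shared with MIR664B and SNORA36A was dim, at 17.7, 14.1 and 15.0 on fructose and 18.3, 18.2 and 18.1 on glucose (difference -0.23, adjusted p = 0.37). The one shared with SNORA56 had 25.9, 27.2 and 15.6 on fructose, against 23.1, 38.6 and 31.7 on glucose (difference -0.45, adjusted p = 0.50), with wide scatter and overlap.

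RUVBL1 and RUVBL2 encode paired AAA+ ATPases that help to load the core proteins during snoRNP assembly, besides acting in chromatin complexes. RUVBL1 had 606, 610 and 620 on fructose and 669, 632 and 683 on glucose, without overlap (difference -0.11, adjusted p = 0.52). RUVBL2 had 726, 801 and 671 on fructose and 660, 729 and 741 on glucose, with overlap and a difference of 0.04 (95% interval -0.17 to 0.26, adjusted p = 0.88). The pair thus had opposite signs, and for RUVBL2 the sign turned to -0.02 without fructose replicate 2 and to -0.01 without glucose replicate 1.

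**Figure D2:**
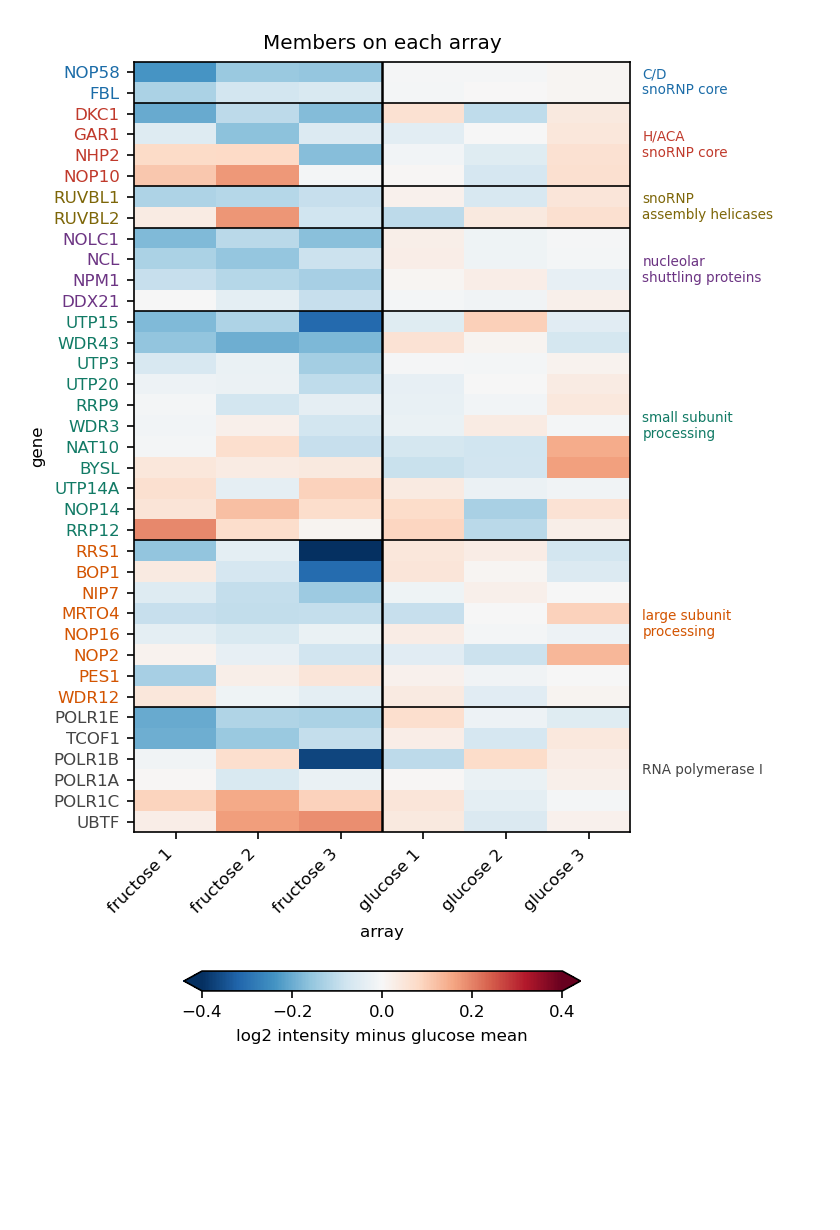
Log2 intensity of each member on each array minus its mean over the glucose arrays, as colour from -0.4 (blue) to 0.4 (red), with values beyond drawn at the ends; columns are the 3 fructose and the 3 glucose arrays and rows are genes grouped by role. NOP58, NOLC1, NCL, NPM1 and WDR43 are blue on all 3 fructose arrays, and RRS1, BOP1 and POLR1B are darkest on fructose replicate 3.

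All 4 genes of abundant, mobile nucleolar proteins had values below 0. NOLC1, a phosphoprotein that binds snoRNPs and travels between nucleolus and Cajal bodies, had 630, 660 and 634 on fructose, against 723, 703 and 710 on glucose. Its difference was -0.15 (SE 0.06, 95% interval -0.30 to -0.0028, adjusted p = 0.37). NCL, encoding the RNA-binding protein nucleolin, had 2263, 2219 and 2326 on fructose and 2513, 2441 and 2453 on glucose, a difference of -0.12 (adjusted p = 0.46). NPM1, encoding the histone chaperone nucleophosmin, had 3698, 3643 and 3595 on fructose, against 3958, 4010 and 3851 on glucose (difference -0.11, adjusted p = 0.49).

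For NOLC1, NCL and NPM1 every fructose array was below every glucose array. A further bright NPM1 probe set had a difference of -0.12 without overlap, and a dim one had 0.10 with wide scatter. DDX21, a helicase that acts in transcription and processing of ribosomal RNA, had 718, 699 and 674 on fructose and 715, 712 and 730 on glucose, so the groups overlapped (difference -0.05, adjusted p = 0.81). The median of these 4 genes stood at -0.11 on each of the 3 fructose arrays, against 0.01, -0.01 and -0.01 on the glucose arrays.

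Small subunit processing factors were mixed, with 7 of 11 lower and a median of -0.02. The 2 lowest belong to the complex that joins the precursor during transcription, the UTP-A complex. UTP15 had 130, 135 and 118 on fructose, against 142, 157 and 142 on glucose (difference -0.20, SE 0.08, 95% interval -0.40 to -0.01, adjusted p = 0.36). WDR43, its partner, had 347, 338 and 342 on fructose and 403, 390 and 368 on glucose (difference -0.18, SE 0.07, 95% interval -0.34 to -0.02, adjusted p = 0.34). Both were separated without overlap, and so was UTP3, with 357, 367 and 340 on fructose and 372, 372 and 377 on glucose (difference -0.08, adjusted p = 0.67).

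The remaining 8 of these factors overlapped between the sugars. UTP20, a large scaffold, was at -0.05, RRP9, a protein of the U3 snoRNP, at -0.04, WDR3 at -0.02 and NAT10, the cytidine acetyltransferase of the small subunit RNA, at -0.01. Above 0 were RRP12 (0.09) and NOP14 (0.08), BYSL (0.04), which encodes bystin, and UTP14A (0.04). BYSL was nearly constant on fructose, at 191, 189 and 190, and ran over 174, 175 and 207 on glucose, which shows that glucose replicate 3 alone set its overlap. Without fructose replicate 3 the median of the 11 genes was 0.01, without fructose replicate 2 it was -0.04, and without glucose replicates 1 or 2 it was -0.05 or -0.04.

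Factors of the large subunit were all at or below 0. The 8 measured genes had a median of -0.07, and 3 were separated without overlap. These were NIP7 at 661, 641 and 619 on fructose, against 677, 694 and 684 on glucose (difference -0.10, adjusted p = 0.57), MRTO4 at 275, 273 and 274 on fructose, against 275, 293 and 312 on glucose (-0.10, adjusted p = 0.62), and NOP16 at 664, 654 and 670 on fructose, against 697, 679 and 673 on glucose (-0.04, adjusted p = 0.81). MRTO4 and NOP16 were separated by very small gaps. Over all tested probe sets 8.81% were separated downward, and in the brightest 20% of probe sets 20.5% were.

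RRS1, which helps to bring the 5S ribosomal RNA into the large subunit, had the lowest value of all members, a difference of -0.27 with a wide interval (SE 0.15, 95% interval -0.63 to 0.08, adjusted p = 0.49). It had 47.8, 51.9 and 34.5 on fructose and 55.0, 54.4 and 50.6 on glucose. Fructose replicate 3 set most of this, since without that array the difference was -0.10. The same array was low for BOP1, with 169, 158 and 133 on fructose, against 171, 166 and 159 on glucose (difference -0.11, and -0.02 without it), and a further BOP1 probe set was at -0.01.

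BOP1, PES1 and WDR12 encode the 3 proteins of the PeBoW complex, which is needed for the large subunit RNA. PES1 (-0.02, 95% interval -0.20 to 0.15) and WDR12 (-0.0030, 95% interval -0.16 to 0.15) lay at 0 within their error. WDR12 had 566, 542 and 534 on fructose and 561, 531 and 552 on glucose. NOP2, a cytosine methyltransferase of the large subunit RNA and a classical proliferation antigen, was at -0.03 (95% interval -0.22 to 0.16).

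**Figure D3:**
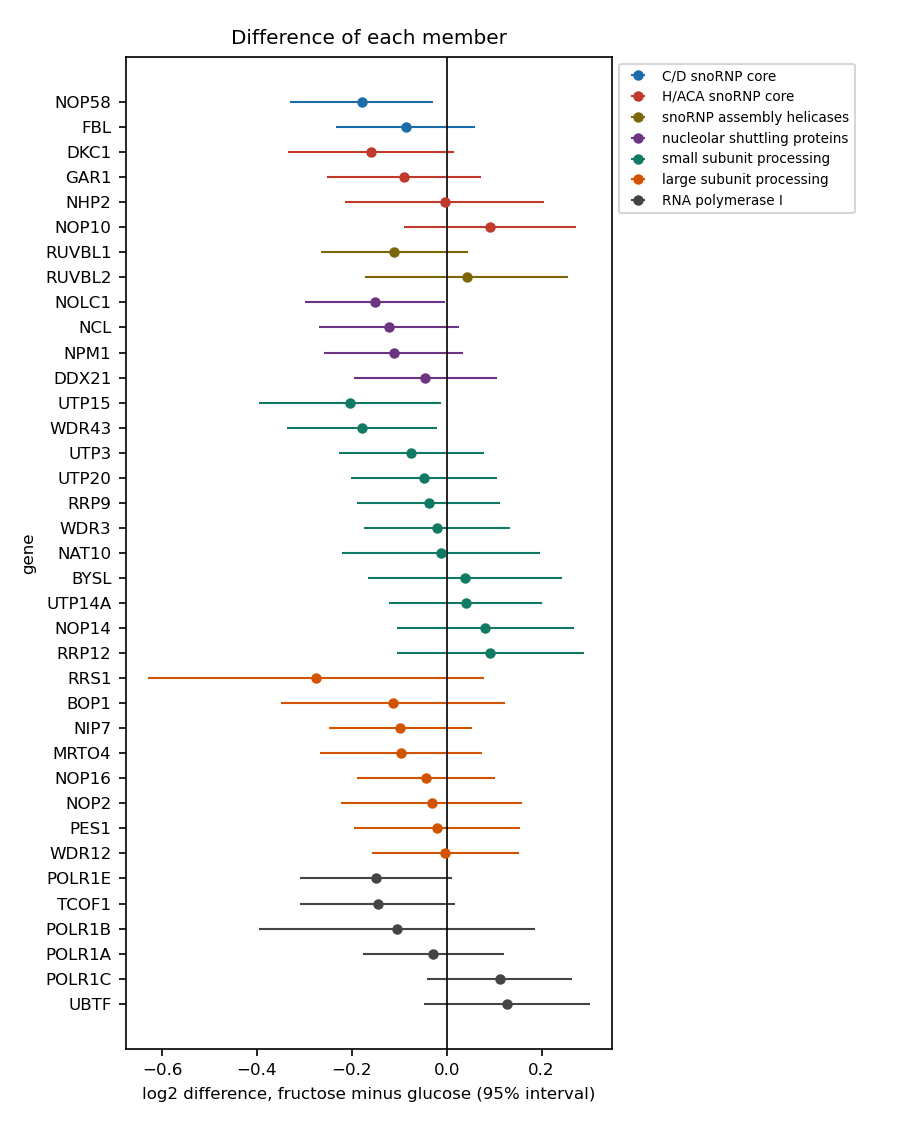
Log2 difference of each member, fructose minus glucose (point), with its 95% interval from limma (line), coloured by role. The intervals of NOP58, NOLC1, WDR43 and UTP15 exclude 0 and those of the other 33 members include it.

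RNA polymerase I genes lay on both sides of 0, with 4 of 6 below it. POLR1E, a subunit that acts in initiation, had 483, 511 and 508 on fructose, against 581, 547 and 536 on glucose (difference -0.15, SE 0.07, adjusted p = 0.41). TCOF1, encoding treacle, which links polymerase I to the ribosomal DNA, had 102, 105 and 109 on fructose and 119, 111 and 120 on glucose (difference -0.15, SE 0.07, adjusted p = 0.42). Both were separated downward without overlap.

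POLR1C, a subunit that polymerases I and III share, was the only member of the 37 separated upward, with 452, 472 and 453 on fructose, against 439, 413 and 422 on glucose (difference 0.11, 95% interval -0.04 to 0.27, adjusted p = 0.51). UBTF, the factor that keeps ribosomal DNA open, had the highest difference of the members, 0.13 (95% interval -0.05 to 0.30, adjusted p = 0.52). Its values were 336, 370 and 375 on fructose and 339, 317 and 334 on glucose, with fructose replicate 1 inside the glucose range. Of the catalytic subunits, POLR1A was at -0.03 and POLR1B at -0.10, the second with 74.8, 79.1 and 58.5 on fructose and 70.2, 79.5 and 77.1 on glucose. Without fructose replicate 3, POLR1B was at 0.03 and the median of the 6 genes moved to -3.78e-04 from -0.07 over all arrays.

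**Figure D4:**
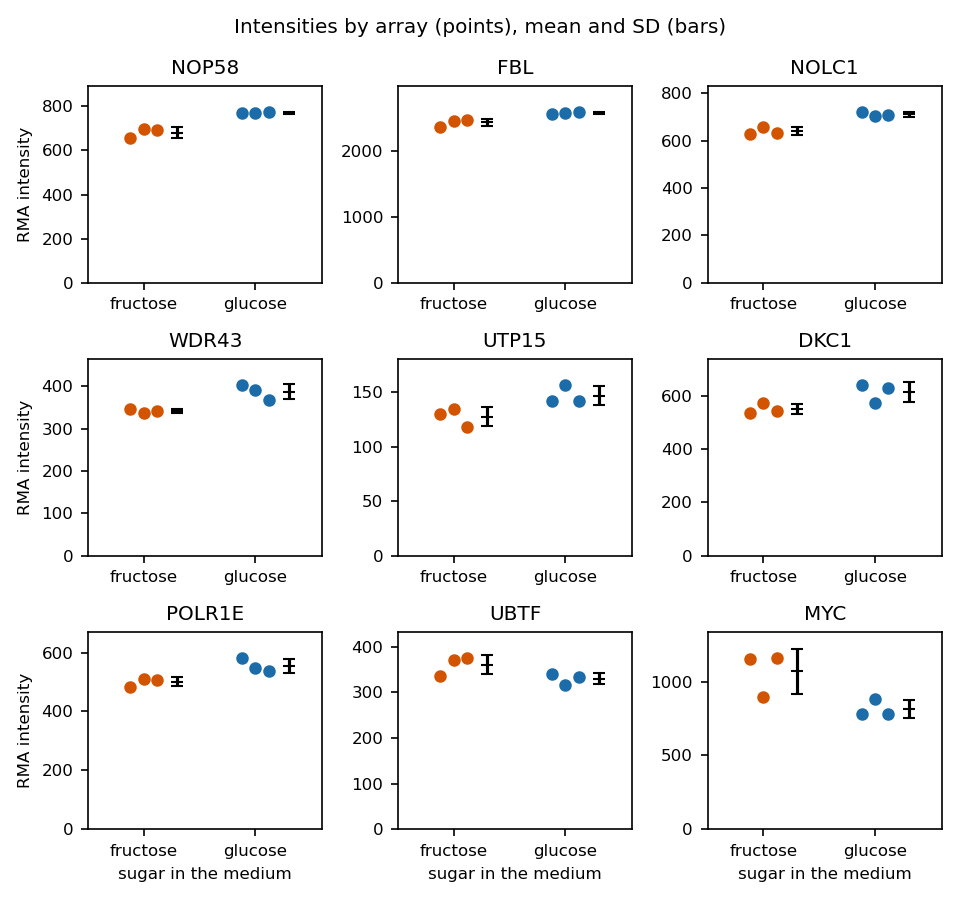
RMA intensity (linear, from 0) of 8 members and MYC on each array, fructose on the left and glucose on the right; points are arrays and the black bars are mean and SD (n = 3). NOP58, FBL, NOLC1, WDR43, UTP15, DKC1 and POLR1E are lower on all fructose arrays, UBTF overlaps, and MYC is higher with fructose replicate 2 near the glucose arrays.

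The members varied together only in part. Correlated over the 6 arrays with the mean profile of the other members, 23 of 37 had a Pearson r above 0.5 and 6 had one below 0. UTP3 (0.967), DDX21 (0.878) and UTP20 (0.874) followed the profile most closely, and UTP14A (-0.69), UBTF (-0.64) and POLR1C (-0.54) ran against it. These 6 points share the sugar contrast and the arrays' normalization, so the correlations describe these arrays only. Fructose replicate 3 was the lowest of the 6 arrays for 12 members and glucose replicate 3 the highest for 14 and the lowest for 0. The ends of this order were not particular to the members. The median of the brightest 20% of probe sets, relative to the glucose mean, was also lowest on fructose replicate 3 (-0.04) and highest on glucose replicate 3 (0.01). Between the ends the order differed. On fructose replicates 1 and 2 that median was 0.004 and 0.008, against -0.014 and 0.003 on glucose replicates 1 and 2. The members' median was -0.020 and -0.040 there, against 0.006 and -0.015. Outside the members, the genes with the closest profile among 18367 were KIF1B (r = 0.999 over 6 arrays), CFAP20 (0.992), GMNN (0.992), FEN1 (0.988) and ID3 (0.988). GMNN encodes the replication licensing inhibitor geminin and FEN1 a nuclease of DNA replication. None of the 5 passed the test, with differences of -0.06, -0.13, -0.16, -0.14 and -0.43.

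Other genes of the pathway were at about the same level of difference. Of 116 further factors listed by role, 110 were measured and 0 passed the test by limma, while 16 were lower and 3 higher at an unadjusted p under 0.05. Of the 110, 80 (72.7%) were below 0, with a median of -0.06, and 33 were separated downward and 8 upward. Over all tested probe sets 5.43% were lower and 7.65% higher at that p, 8.81% were separated downward and 11.4% upward, and 43.8% were below 0. In the brightest 20% of probe sets these shares were 9.79%, 9.71%, 20.5%, 17.2% and 52.4%. The 39 other small subunit factors had a median of -0.04 (-0.08 without fructose replicate 2 and -0.03 without fructose replicate 3), and those with the smallest p were LTV1, which accompanies the small subunit out of the nucleus, at 416, 440 and 448 on fructose, against 519, 525 and 501 on glucose (difference -0.24, adjusted p = 0.23), and NOL11 (-0.21, adjusted p = 0.29). UTP25, chosen after its values were seen, had the difference furthest from 0 in that list and lay on the other side, at 0.25 (adjusted p = 0.29), with its arrays separated upward. The 37 other large subunit factors had a median of -0.03 (-0.05 without fructose replicate 1 or glucose replicate 1 and -0.02 without glucose replicate 3), with the AAA ATPase NVL at -0.25 (adjusted p = 0.27) and BRIX1 at -0.20 (adjusted p = 0.32).

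All 9 snoRNP assembly factors were below 0, with a median of -0.11. NOPCHAP1, a chaperone cofactor for NOP58, had 460, 477 and 430 on fructose, against 527, 544 and 518 on glucose (difference -0.22, adjusted p = 0.28). RPAP3, a scaffold of the R2TP complex in which RUVBL1 and RUVBL2 work, was at -0.18 (adjusted p = 0.39). Among 14 exosome and trimming genes 11 were below 0 (median -0.08), with EXOSC9 at -0.27 (adjusted p = 0.31) and EXOSC4 on the other side at 0.20 (adjusted p = 0.30).

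The other 11 polymerase I factors had a median of -0.10, and -0.05 without fructose replicate 3. POLR1D, which pairs with POLR1C, had 313, 324 and 288 on fructose, against 261, 269 and 266 on glucose (difference 0.21, adjusted p = 0.29). POLR1F went the other way, with 285, 321 and 294 on fructose and 340, 354 and 349 on glucose (difference -0.22, adjusted p = 0.30). POLR1C and POLR1D were thus both separated upward and POLR1E and POLR1F downward, while POLR1A, POLR1B, POLR1G and POLR1H overlapped. POLR1D and POLR1F were named for having the smallest p values of their list.

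**Figure D5:**
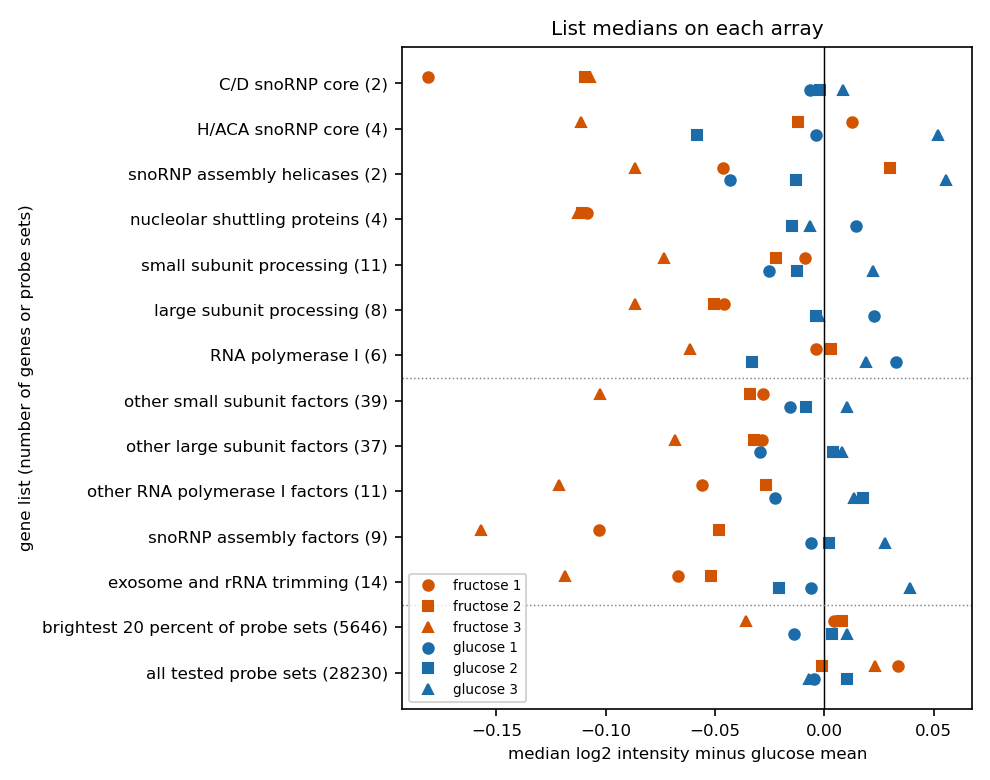
Median over each gene list of the log2 intensity minus the glucose mean (x) on each array, with fructose arrays in orange and glucose arrays in blue and the number of genes or probe sets in brackets; the top block holds the members by role, the middle block the other pathway genes and the bottom block brightness backgrounds. The nucleolar proteins stand at -0.11 on all 3 fructose arrays, and fructose replicate 3 is lowest in most lists.

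MYC, known as a driver of these genes, had the opposite sign to most of them. MYC read 1153, 896 and 1161 with fructose, against 778, 882 and 780 with glucose, a difference of 0.39 (SE 0.12, 95% interval 0.11 to 0.67, adjusted p = 0.26). Fructose replicate 2 was only just above the highest glucose array. MXD1, which encodes an antagonist that competes with MYC for its partner MAX, had 203, 157 and 172 on fructose, against 130, 142 and 135 on glucose (difference 0.38, adjusted p = 0.23). Across the 7 genes of the MYC network the median was 0.21, and 0.14 without fructose replicate 1. Besides MYC and MAX (0.12), that list held MXD1, MXD3 (0.04), MXD4 (0.21), MXI1 (-0.02) and MNT (0.23). Its median was the value of MXD4, and the activity of MYC was not measured.

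The sequence CACGTG, the E-box that MYC and MAX bind, was looked up in promoters of RefSeq on GRCh38.p14, which cover 250 bases before and 50 after the start of a gene. The motif reads the same on both strands. Of the 37 members, 30 had an entry, and 12 of these (40%) held CACGTG, against 24 of 101 other pathway genes (23.8%), 8.88% of 15843 protein-coding genes and 7.43% of all 27305 promoters. The variant CACGCG, on either strand, was in 11 of 30 members (36.7%) and in 14.8% of protein-coding genes, and CCAAT, on either strand, in 12 of 30 (40%) and in 36.4%. On neither strand can a copy of one of these motifs overlap a copy of another, but one promoter can hold several. The presence of the letters is a description and does not show binding.

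Of the 13 CACGTG copies, 6 began before the start site and the rest just after it. The following windows show 30 bases around the copy nearest to the start, with CACGTG in capitals and bases numbered from the start site. FBL, WDR43 and NOP14 came from the rule for shown sequences, and UTP20 and NAT10, where the motif lies just before the start, were added after the data were seen.
FBL, chr19:39846356-39846385, minus strand, motif from base 7: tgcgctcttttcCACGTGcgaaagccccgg
WDR43, chr2:28894658-28894687, plus strand, motif from base 4: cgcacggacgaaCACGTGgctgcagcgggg
NOP14, chr4:2963374-2963403, minus strand, motif from base 16: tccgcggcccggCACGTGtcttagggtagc
UTP20, chr12:101280083-101280112, plus strand, motif from base -10: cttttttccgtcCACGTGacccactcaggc
NAT10, chr11:34105602-34105631, plus strand, motif from base -15: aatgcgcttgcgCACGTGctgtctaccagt

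These genes did not move alike on fructose: WDR43 was at -0.18 and FBL at -0.09, both separated downward, while UTP20 (-0.05), NAT10 (-0.01) and NOP14 (0.08) overlapped. The 12 members with CACGTG had a median difference of -0.03, with 8 below 0 and 3 separated downward. The 18 with an entry and no CACGTG had a median of -0.06, with 15 below 0 and 9 separated downward. Downward separation held for 8.81% of all tested probe sets and for 20.5% of the brightest 20%. NOP58, NOLC1, POLR1E, TCOF1, RRS1, BOP1 and RRP12 had no entry and are in neither count. Of these, NOP58, NOLC1, POLR1E and TCOF1 were separated downward, RRS1 had the lowest difference of all members, and RRP12 was above 0.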

How the data were processed

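Total RNA of 6 cultures was labelled with biotin and hybridised to 1 array each, per the labels' protocols. The deposited values are intensities of probe sets that the authors computed with RMA, per the submitters' processing notes. No version, program, build or filter is named in the labels used here. The deposited intensities were linear, so log2 was taken, with no pseudocount, and the authors' normalization was kept. Of 32321 rows, 4091 with identifiers below the lowest one paired with a gene were taken as controls and left out, which is a reading of the numbering. Of the 28230 tested probe sets, 19158 had 1 gene symbol, 1388 several and 7684 none.

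Each probe set was fitted with lmFit and eBayes of limma 3.58.1 (R 4.3.3) as fructose minus glucose (two-sided, no covariate, 3 arrays a group). Intervals are 95% intervals of that fit. Adjusted p values are Benjamini-Hochberg over all tested probe sets. The procedure was tested on simulated data with planted log2 differences larger than that of any member. It therefore does not show whether differences of the members' size would be called. Arrays give no read depth, and their number limits the precision. The members and lists were chosen with earlier results of these data known, so lists are described by counts and medians with no test. Named genes were all members, MYC, TXNIP, the 2 genes with the smallest p in each list of other pathway genes, and the 5 genes closest in profile. Same-numbered arrays of the 2 sugars did not deviate together (r between -0.05 and -0.02), and the labels do not pair them. The alternatives tried were each array left out, a replicate block, other normalizations, variance settings, filters and probe set choices.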

Additional observations from a re-analysis of the deposited data

How the results depend on the processing

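No member passed under any of 16 alternative settings. The smallest adjusted p was 0.077, for NOP58 with an intensity trend and robust variances. The median of the members stayed between -0.07 and -0.04 with an array left out, and 24 to 30 of 37 members were then below 0, the fewest without fructose replicate 3. The replicate block left the median at -0.05 and 1 member at an unadjusted p under 0.05, and it changed no call. Over all probe sets 1 was called with any array left out, but 473 with an intensity trend and robust variances, 299 among bright probe sets, 35 when 1 representative probe set per gene was tested and 0 with the unmoderated test of the same model (3565 at an unadjusted p under 0.05, against 1534 lower and 2160 higher with limma's moderated test). The cause was not tested. In the bright and representative settings fewer probe sets were tested, and limma's variances were also estimated anew from those probe sets.

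The nucleolar shuttling genes had a median of -0.10 after repeated quantile normalization, -0.14 after centring arrays and -0.084 when probe sets of a gene were averaged. Centring also gave -0.10 for large subunit processing and -0.058 for other large subunit factors. Averaging probe sets gave -0.016 for other polymerase I factors. With an array left out, medians ran from -0.083 to -3.78e-04 for RNA polymerase I, from -0.13 to -0.050 for other polymerase I factors, from -0.084 to -0.029 for other small subunit factors and from 0.14 to 0.21 for the MYC network. The sign of 9 members turned in at least 1 setting. Left-out ranges were -0.056 to 0.036 for PES1, -0.024 to 0.10 for RUVBL2, -0.027 to 0.015 for WDR12, -0.046 to 0.078 for NHP2, -0.042 to 0.0059 for WDR3, -0.051 to 0.062 for NAT10, -0.19 to 0.027 for POLR1B, -0.0052 to 0.12 for BYSL and -0.075 to 0.035 for NOP2. WDR12 was at 0.0076 after quantile normalization and 0.0021 with array weights, where NHP2 was at 0.0033. The causes were not tested.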
